A study of Homo sapiens with 90 samples.

Results

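The glucose transporters SLC2A1, SLC2A2, SLC2A3, SLC2A8 and SLC2A10 and the hexokinases HK1 and HK2 are described here in the liver tumour line HepG2, an established human cell line. These 7 genes, of the 19774 genes with a probe set of their own, were read by 14 of the 54613 non-control probe sets of the array. A probe set is a group of short array sequences read together as a single value. Of the 14, 12 carried 1 gene symbol, and 2 carried both SLC2A3 and its close relative SLC2A14 and are given apart. The members were chosen by their log2 differences from the DMSO vehicle in these same arrays, so every difference from DMSO is given as a description. Where a count of members past a threshold against DMSO is printed, nothing is read from it.

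Cells in multiwell plates were exposed for 24 h to DMSO alone or to 9 doses, between 0.001 and 10 µM, of fenbuconazole, of imazalil or of 2,4-D, and all groups, controls included, held 0.2% DMSO. The fungicides fenbuconazole and imazalil are azoles, with a triazole and an imidazole ring respectively, whereas 2,4-D is a herbicide of the chlorophenoxy class. Each compound had 3 arrays per dose, and the same 3 DMSO arrays served all compounds, so the differences from DMSO of the 3 compounds share their controls. The labels do not say whether replicates came from separate cultures, and the spread between them may be technical.

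Glucose enters cells through facilitative transporters of the SLC2A (GLUT) family, which carry it down its concentration gradient. Inside the cell a hexokinase phosphorylates it, which keeps it in the cell and commits it to glycolysis, glycogen or the pentose phosphate pathway. SLC2A2 is the main transporter of the hepatocyte and moves glucose in both directions, SLC2A1 and SLC2A3 are high-affinity transporters that many tumour lines express, and SLC2A8 and SLC2A10 lie largely on membranes inside the cell. HK1 is the housekeeping hexokinase of many tissues, and HK2 is common in muscle and in tumours, whereas the normal hepatocyte relies on glucokinase.

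The cells carried the markers of their label. All 8 hepatocyte markers (ALB, AFP, APOA1, APOB, TTR, SERPINA1, FGB and TF) lay above the 95th percentile of probe sets, with mean log2 intensities from 10.1 to 13.1. The 8 markers of fibroblasts, blood and endothelial cells (COL1A1, COL3A1, DCN, THY1, PTPRC, CD14, PECAM1 and VWF) had means from 2.64 to 4.18, and 5 of them were below the median of all probe sets (3.01). The interquartile range of an array's values lay between 2.81 and 3.17. In these bulk samples fewer cells of a type and less RNA per cell cannot be told apart.

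The upstream sequences of SLC2A2 and HK2 are shown because SLC2A2 had the lowest log2 difference from DMSO of all members at 10 µM fenbuconazole and HK2 carried the only E-boxes found among the 6 members in the promoter table. Both are the 250 bases before an annotated start, from RefSeq on GRCh38.p14, and capitals mark the E-box CACGTG, the letters read by carbohydrate-response and MYC-type factors.
SLC2A2, chr3:171026721-171026970, minus strand: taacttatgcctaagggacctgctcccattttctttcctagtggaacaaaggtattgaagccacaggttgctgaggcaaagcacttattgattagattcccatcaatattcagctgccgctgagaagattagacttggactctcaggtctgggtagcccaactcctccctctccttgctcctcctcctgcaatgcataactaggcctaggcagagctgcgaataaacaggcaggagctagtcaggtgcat
HK2, chr2:74834920-74835169, plus strand: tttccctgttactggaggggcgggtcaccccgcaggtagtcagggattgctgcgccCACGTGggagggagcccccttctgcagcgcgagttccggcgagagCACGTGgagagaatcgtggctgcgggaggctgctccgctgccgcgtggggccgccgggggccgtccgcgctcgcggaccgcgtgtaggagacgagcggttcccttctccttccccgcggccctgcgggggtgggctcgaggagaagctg
The HK2 window held 2 matches, the window of the other HK2 start held none, and the window of SLC2A2 held none. CACGTG, which reads alike on both strands, stood in 6.35% of the 35116 start windows of the table. SLC2A1, SLC2A8, SLC2A10 and the 7 starts of HK1 had no match. The core letters of hypoxia response elements, ACGTG or GCGTG on either strand, overlap the E-box and stood in 43.2% of windows, among them both HK2 starts, SLC2A10 and 1 of the 7 HK1 starts. SLC2A3 was named only. A match is a run of letters and says nothing about binding.

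The levels of the members on the log2 intensity scale, as means over all 90 columns, were 10.1 for the leading SLC2A3 probe set (202499_PM_s_at), 9.40 for SLC2A1, 8.35 for HK2, 7.62 for SLC2A10, 7.08 for SLC2A8, 6.19 for SLC2A2 and 3.39 for HK1. The leading probe set of a gene is the one with 1 symbol and the highest mean. Different probe sets bind with different strength, so these means place each probe set among all probe sets and do not rank the genes. The leading SLC2A3 probe set stood at the 97.7th percentile and HK1 at the 58.5th.

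SLC2A3, a high-affinity glucose transporter, was the gene among the 7 with the lowest log2 difference from DMSO at 10 µM imazalil. On the leading probe set the 3 DMSO arrays of the imazalil set read 9.98, 10.04 and 10.20, and the 3 arrays at 10 µM read 9.55, 9.65 and 9.68. All 3 treated arrays lay below all 3 DMSO arrays. The means were 10.08 ± 0.11 (SD, n = 3) with DMSO and 9.63 ± 0.07 (SD, n = 3) with imazalil, a log2 difference of -0.45 (SE 0.083) or 0.732-fold. At 3 µM the arrays read 9.79, 9.86 and 9.98 (log2 difference -0.20, SE 0.083), and at 1 µM they read 9.93, 9.96 and 9.98 (log2 difference -0.12, SE 0.083). Both groups also lay wholly below DMSO, although by less.

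**Figure D1:**
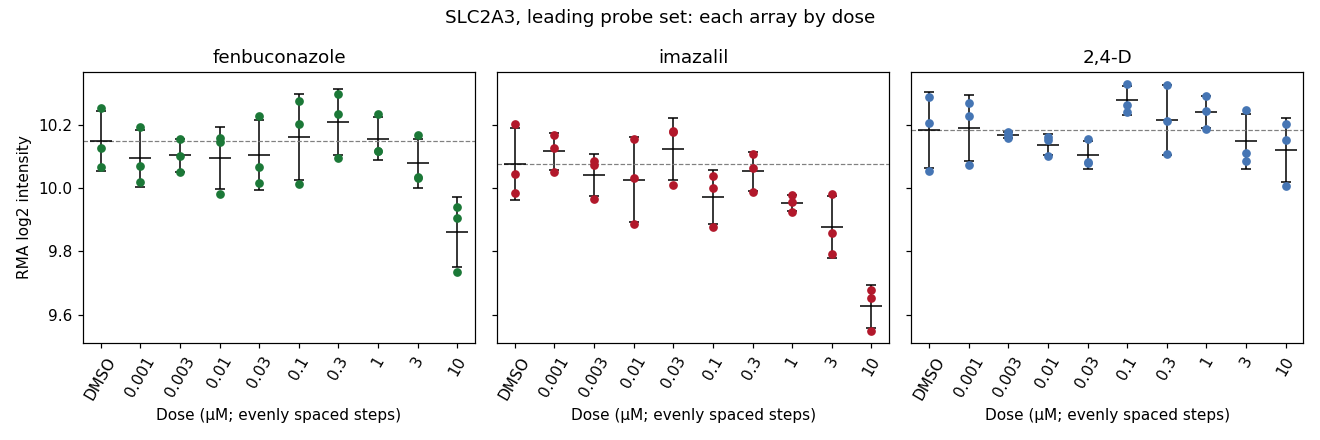
Log2 intensity of the leading SLC2A3 probe set (y axis) in each array by dose (x axis, in evenly spaced steps of µM) in the 3 compound sets. Points are arrays, bars are mean ± SD (n = 3), and the dashed line is the DMSO mean of the set. The 3 arrays at 10 µM imazalil sit between 9.55 and 9.68, below every DMSO array.

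With fenbuconazole the leading SLC2A3 probe set read 10.07, 10.12 and 10.25 in DMSO and 9.74, 9.90 and 9.94 at 10 µM. The treated arrays lay below all DMSO arrays, with a log2 difference of -0.29 (SE 0.090) or 0.819-fold. At 3 µM fenbuconazole the log2 difference was -0.07 (SE 0.090) and the groups overlapped. With 2,4-D the arrays read 10.05, 10.20 and 10.29 in DMSO and 10.01, 10.15 and 10.20 at 10 µM, and the log2 difference of -0.06 (SE 0.077) came from overlapping groups.

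In the order of the group means of this probe set, the step from 3 to 10 µM was the only one between neighbours that exceeded the SDs of both groups. That gap was 0.251 with imazalil and 0.218 with fenbuconazole. With 2,4-D no neighbours differed beyond their spread, and its 10 groups, DMSO included, ran from 10.11 to 10.28.

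The other probe sets of SLC2A3 gave values of the same sign at 10 µM imazalil. Probe set 202497_PM_x_at had a log2 difference of -0.43 (SE 0.072) and lay wholly below DMSO. Probe set 202498_PM_s_at had a log2 difference of -0.25 (SE 0.167), with DMSO arrays at 7.91, 8.21 and 8.49 that overlapped the treated arrays at 7.77, 7.95 and 8.14. Without replicate 1 the difference on 202498_PM_s_at was -0.012. The 2 probe sets shared by SLC2A3 and SLC2A14 had log2 differences of -0.44 (216236_PM_s_at, SE 0.085) and -0.48 (222088_PM_s_at, SE 0.073), both with every treated array below DMSO. With 10 µM fenbuconazole these 4 probe sets had log2 differences from -0.17 to -0.08, and only 216236_PM_s_at lay wholly below DMSO. SLC2A14 has no probe set of its own among these 14, so its part in the shared values was not tested.

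**Figure D2:**
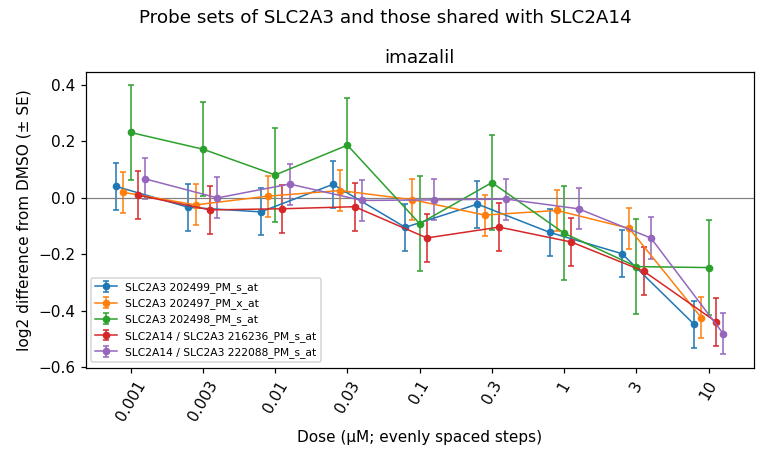
Log2 difference from DMSO with its SE (y axis) by imazalil dose (x axis, in evenly spaced steps of µM) for the 3 probe sets of SLC2A3 and the 2 shared with SLC2A14. The 5 values at 10 µM lie between -0.48 and -0.25.

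At 10 µM imazalil 4 of the 14 member probe sets passed an adjusted p of 0.05 against DMSO (limma), against 0.0403% of all probe sets, and these were the contrasts behind the choice of members, so nothing is read from the count. None of the 4 passed when replicate 1, 2 or 3 was left out of every group. With 10 µM fenbuconazole 0 of 14 passed against 0.00549% of all probe sets, and with 10 µM 2,4-D 0 of 14 passed against 0% of all probe sets. At an unadjusted p of 0.05, 6 member probe sets passed with imazalil (5.11% of all probe sets), 3 with fenbuconazole (4.36%) and 0 with 2,4-D (4.13%). Wholly below DMSO were 6 of 14 member probe sets at 10 µM imazalil, against 6.18% of all probe sets, and 3 of 14 at 10 µM fenbuconazole, against 4.24%. The median log2 difference of the members was -0.18, -0.10 and -0.02 with imazalil, fenbuconazole and 2,4-D, beside medians of -0.01, 0.00 and 0.00 over all probe sets.

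**Figure D3:**
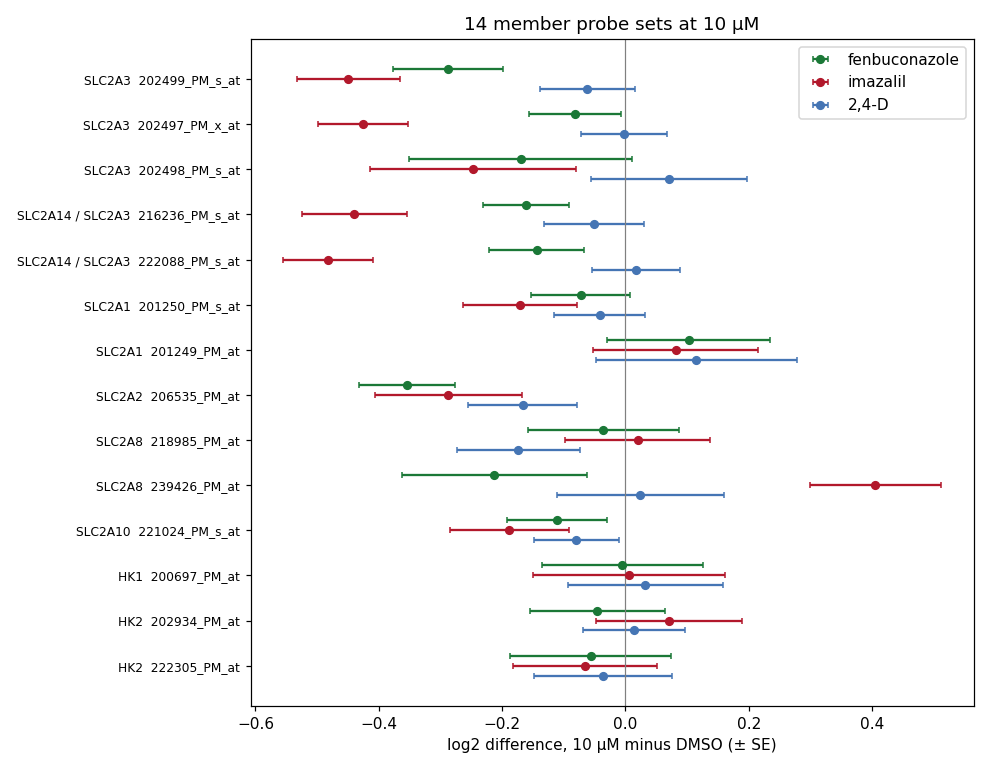
Log2 difference between 10 µM and DMSO with its SE (x axis) for the 14 member probe sets (y axis) and the 3 compounds. With imazalil the SLC2A3 probe sets, shared ones included, lie lowest except 202498_PM_s_at (-0.25), which lies above SLC2A2 (-0.29). With fenbuconazole SLC2A2 lies lowest at -0.35. Over all 3 compounds the hexokinases lie between -0.06 and 0.07.

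SLC2A2, the hepatocyte transporter, had its lowest log2 difference from DMSO with fenbuconazole. The DMSO arrays of that set read 6.12, 6.13 and 6.32 and the arrays at 10 µM read 5.76, 5.87 and 5.88, all of them lower. The log2 difference was -0.35 (SE 0.078), or 0.782-fold, and at 3 µM it was -0.12 (SE 0.078) with overlapping groups. At 10 µM imazalil the arrays read 5.88, 5.88 and 5.94 against 6.11, 6.11 and 6.34 in DMSO, a log2 difference of -0.29 (SE 0.119). At 10 µM 2,4-D they read 6.22, 6.28 and 6.30 against 6.33, 6.38 and 6.59, a log2 difference of -0.17 (SE 0.088). SLC2A2 was the only member probe set whose 3 treated arrays lay below DMSO at 10 µM of all 3 compounds. Those 3 comparisons use the same DMSO arrays.

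**Figure D4:**
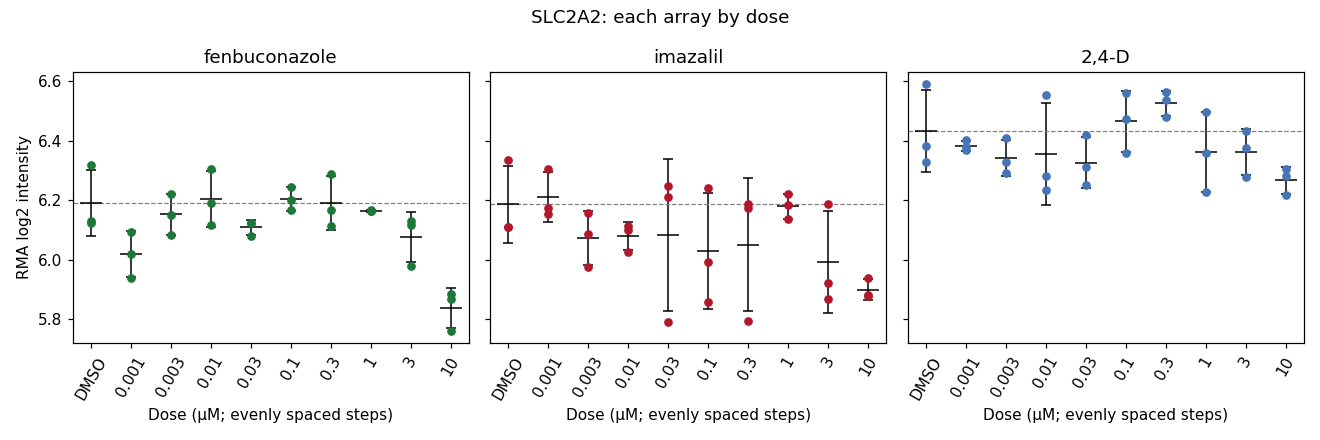
Log2 intensity of SLC2A2 (y axis) in each array by dose (x axis, in evenly spaced steps of µM) in the 3 compound sets. Points are arrays, bars are mean ± SD (n = 3), and the dashed line is the DMSO mean of the set. At 10 µM every array lies below the DMSO arrays of its set.

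The probe sets of SLC2A8, a transporter of intracellular membranes, differed at 10 µM imazalil against DMSO. On 239426_PM_at the DMSO arrays of the imazalil set read 5.09, 5.29 and 5.33, and the arrays at 10 µM read 5.54, 5.70 and 5.70. This was the only member value wholly above DMSO at 10 µM imazalil (log2 difference 0.41, SE 0.106, or 1.32-fold). On the leading probe set, 218985_PM_at, the log2 difference was 0.02 (SE 0.117) and the groups overlapped. Against the 3 lowest imazalil doses both probe sets were above 0 at 10 µM, which is given as a description. The values were 0.18 (SE 0.089) on 218985_PM_at and 0.47 (SE 0.087) on 239426_PM_at. With 10 µM fenbuconazole both probe sets were below 0, at -0.21 (SE 0.150) and -0.04 (SE 0.123), and both overlapped DMSO.

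**Figure D5:**
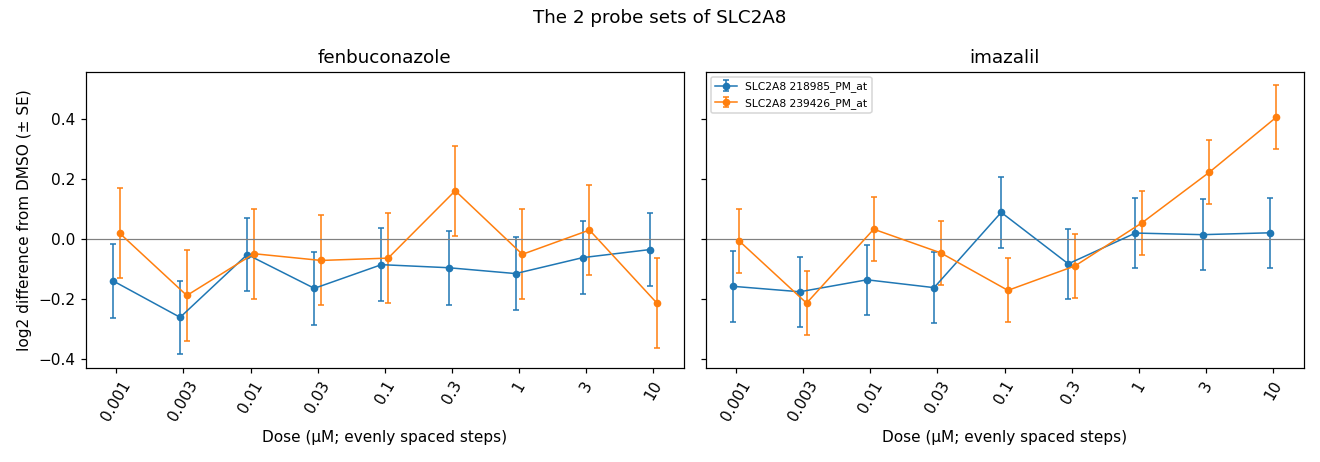
Log2 difference from DMSO with its SE (y axis) by dose (x axis, in evenly spaced steps of µM) for the 2 probe sets of SLC2A8 with fenbuconazole and imazalil. With imazalil they part at the highest doses, and at 10 µM they stand at 0.41 and 0.02.

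SLC2A10, also a transporter of intracellular membranes, read 7.48, 7.56 and 7.56 in the DMSO arrays of the imazalil set and 7.28, 7.35 and 7.41 at 10 µM. All treated arrays were lower (log2 difference -0.19, SE 0.097). With 10 µM fenbuconazole (-0.11, SE 0.080) and 2,4-D (-0.08, SE 0.069) the groups overlapped. SLC2A1, the basal transporter of many cell types, overlapped DMSO at 10 µM of each compound on both probe sets. Its leading probe set had log2 differences of -0.17, -0.07 and -0.04 with imazalil, fenbuconazole and 2,4-D, and the dimmer 201249_PM_at had 0.08, 0.10 and 0.11.

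The hexokinases overlapped DMSO at 10 µM of each compound. HK2, on its leading probe set, read 8.09, 8.26 and 8.30 in DMSO and 8.27, 8.29 and 8.30 at 10 µM imazalil, with overlapping groups and a log2 difference of 0.07 (SE 0.118). With fenbuconazole and 2,4-D its log2 differences were -0.05 (SE 0.110) and 0.01 (SE 0.082). The same probe set lay wholly above DMSO at some lower doses, up to 0.21 (SE 0.110) at 3 µM fenbuconazole and 0.22 (SE 0.082) at 0.001 µM 2,4-D, with no order by dose. The dimmer HK2 probe set, 222305_PM_at, had log2 differences of -0.06 with imazalil (SE 0.117), -0.06 with fenbuconazole (SE 0.131) and -0.04 with 2,4-D (SE 0.112) at 10 µM. HK1 had log2 differences from -0.0049 to 0.03 at 10 µM, on a probe set only slightly brighter than the median of all probe sets. With a replicate left out its difference ran from -0.24 to 0.15 with imazalil, from -0.21 to 0.18 with fenbuconazole and from -0.03 to 0.12 with 2,4-D, so it had no settled sign.

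Whether the members changed with dose among the treated arrays of a compound was tested with limma over all probe sets, without the DMSO arrays. All of these tests, at 10 µM and below, reuse treated arrays that also enter the comparisons with DMSO. They are therefore not independent of the choice of members, and their intervals and p-values are given as a description. In these 10 tests 0 of the 14 member probe sets passed. The share of all probe sets that passed was 0% for fenbuconazole and for 2,4-D and 0.00183% for imazalil, both in the slope from 0.001 to 3 µM and in 3 µM against the 3 lowest doses. It was 0.011% for fenbuconazole and 0% for 2,4-D in the slope over 9 doses, and 0.0165% and 0% in 10 µM against the 3 lowest doses. At an unadjusted p of 0.05, between 0 and 7 of the 14 member probe sets passed. Both counts of 7 were with imazalil, where 6.03% of all probe sets passed in the slope to 3 µM and 5.37% at 3 µM against the lowest doses. Both held several SLC2A3 probe sets below 0, shared ones included, and SLC2A1 and SLC2A8 probe sets above 0. They are therefore not counts of separate genes, and nothing is read from them.

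The member with the lowest adjusted p was SLC2A2. At 10 µM fenbuconazole it differed from the mean of the 3 lowest doses by a log2 value of -0.29 (95% interval -0.42 to -0.16, limma adjusted p = 0.227), which did not pass. The leading SLC2A3 probe set differed in the same comparison by -0.24 (95% interval -0.39 to -0.08, limma adjusted p = 0.645).

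Up to 3 µM imazalil, SLC2A3 had log2 slopes per 10-fold dose of -0.05 on the leading probe set (95% interval -0.09 to -0.01, limma adjusted p = 0.784) and -0.12 on 202498_PM_s_at (95% interval -0.19 to -0.06, limma adjusted p = 0.577). The shared probe sets had slopes of -0.07 (216236_PM_s_at, limma adjusted p = 0.560) and -0.04 (222088_PM_s_at, limma adjusted p = 0.787). The third SLC2A3 probe set, 202497_PM_x_at, had a slope of -0.03 (95% interval -0.06 to 0.0025, limma adjusted p = 0.832). None of these passed. On SLC2A8 both probe sets had a slope of 0.06 in this range, with limma adjusted p-values of 0.800 (218985_PM_at) and 0.823 (239426_PM_at). SLC2A1 had a slope of 0.09 on 201249_PM_at (95% interval 0.03 to 0.14, limma adjusted p = 0.724). On its leading probe set the slope was 0.0047 (limma adjusted p = 0.988).

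Differences between compounds at a matched dose are differences of the values against DMSO that chose the members, and they are given as a description with no test. At 3 µM the log2 value of the leading SLC2A3 probe set was -0.16 for imazalil minus 2,4-D (SE 0.073) and -0.13 for imazalil minus fenbuconazole (SE 0.081). At 10 µM it was -0.39 for imazalil minus 2,4-D (SE 0.073), -0.16 for imazalil minus fenbuconazole (SE 0.081) and -0.23 for fenbuconazole minus 2,4-D (SE 0.078). In the fits of these differences 0 of 14 member probe sets passed the threshold, beside 0% of all probe sets for imazalil minus fenbuconazole, 0.00366% for imazalil minus 2,4-D and 0% for fenbuconazole minus 2,4-D at 3 µM, and 0.0311% for fenbuconazole minus 2,4-D at 10 µM. At an unadjusted p of 0.05, 4, 5, 0 and 3 member probe sets passed in that order, beside 5.18%, 5.57%, 3.76% and 6.31% of all probe sets. Nothing is read from these counts.

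Of a list of 54 other genes of glucose transport, glycolysis, gluconeogenesis and their regulators, 47 had a leading probe set. In the 10 tests and the 4 comparisons between compounds none of the 47 passed the adjusted p threshold upward. Only TXNIP and ARRDC4, arrestin-family proteins that lower glucose uptake, passed it downward. At 10 µM fenbuconazole against the 3 lowest doses, 2 of 47 passed downward, beside 0.0165% of all probe sets (6 up and 3 down). TXNIP was lower by 0.55 (SE 0.085) and ARRDC4 by 0.52 (SE 0.081) on the log2 scale, each with a limma adjusted p of 0.00818. The list was chosen with earlier results of these data known. That contrast also reuses the 10 µM arrays, so its p-values are given as a description. ARRDC4 was also lower with fenbuconazole than with 2,4-D at 10 µM (log2 difference -0.60, SE 0.121, limma adjusted p = 0.0438). The fit between compounds counts no error for the DMSO means, so this difference too is only a description. Below 10 µM fenbuconazole ARRDC4 had the opposite sign. Its log2 slope up to 3 µM was 0.10 (SE 0.024), and 3 µM against the 3 lowest doses gave 0.24 (SE 0.081). For TXNIP these values were -0.03 (SE 0.021) and -0.13 (SE 0.085). None of these values passed the threshold. The HK2 start window above shares the E-box letters with the window of ARRDC4, while both windows of TXNIP held none.

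At 10 µM the outermost log2 differences of the list from DMSO, which share the control arrays between compounds, are given with no test. With imazalil the lowest were TXNIP (-0.85), ARRDC4 (-0.65) and the glucokinase regulator GCKR (-0.27), and the highest were PCK1 (0.63), a key enzyme of gluconeogenesis, SLC2A13 (0.39) and PFKFB3 (0.39). With fenbuconazole the lowest were ARRDC4 (-0.71), TXNIP (-0.48) and FBP1 (-0.25), and the highest were the aldolase ALDOC (0.45), SLC5A2 (0.35) and PFKFB4 (0.25). With 2,4-D the lowest were SLC2A12 (-0.29), PFKP (-0.18) and the hexokinase-like HKDC1 (-0.17), and the highest were ALDOC (0.30), SLC5A2 (0.24) and SLC2A11 (0.17). Several of these differences were smaller than the SD of the DMSO arrays. That SD was 0.56 for ALDOC with fenbuconazole and 2,4-D, 0.42 for PFKFB3 with imazalil, and 0.33 for SLC2A12 and 0.35 for PFKP with 2,4-D. For TXNIP and ARRDC4 with imazalil it was 0.02 each. PCK1, FBP1 and SLC2A12 were dim, with means over all columns of 3.38, 3.33 and 3.08 beside a median probe set at 3.01. The 16 measured genes of glycolysis had a median of -0.04 with imazalil, with 6 above 0 and 10 below. With fenbuconazole the median was -0.0032, with 8 above 0 and 8 below, and with 2,4-D it was -0.0071, with 5 above and 11 below.

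Likeness to the leading SLC2A3 probe set was taken across the 27 treated group means, each centred within its set. Each gene stood by its most alike probe set of 1 symbol brighter than the median, not by its leading one. The genes most alike were DKK1 (Pearson r = 0.887), CCN2 (0.868), UGT2B28 (0.841), PLPPR1 (0.818) and FGA (0.816). Among the other member probe sets r was highest, at 0.867 and 0.814, for the shared 222088_PM_s_at and 216236_PM_s_at. It was 0.783 and 0.710 for the SLC2A3 probe sets 202498_PM_s_at and 202497_PM_x_at, 0.756 for SLC2A2 and 0.755 for SLC2A10. The rest were lower or below 0, at 0.459 and -0.447 for HK2 and 0.327 and -0.340 for SLC2A1, the leading probe set first. For SLC2A8 r was -0.513 and -0.328, and for HK1 it was -0.025. The 27 points share 3 normalizations and the doses, and r is a description. Some members also moved with the interquartile range of the arrays over the 27 treated arrays of a set. That r was 0.848 for the SLC2A3 probe set 202498_PM_s_at with fenbuconazole, 0.747 for HK2 with fenbuconazole and -0.70 for SLC2A1 with imazalil. For the leading SLC2A3 probe set it was 0.570 with fenbuconazole and -0.06 with imazalil. With that range as a covariate the log2 difference of this probe set at 10 µM imazalil was -0.48. At 10 µM fenbuconazole the covariate took the difference from -0.29 to -0.24 on the leading probe set. On 202498_PM_s_at it went from -0.17 to -0.02.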

How the data were processed

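Total RNA was hybridized to Affymetrix 3' expression arrays. The deposited values are log2 intensities of probe sets, which the authors normalized by RMA separately in each compound's set of 30 columns (27 treated and copies of the 3 DMSO arrays). The submitters' processing notes name RMA and Partek. Their versions are not given in the sources used here. In all, the 90 columns came from 84 arrays. No depth applies to arrays, and 3 per group limit the precision.

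Gene symbols came from the platform annotation, and all 7 members matched RefSeq by Entrez identifier. The 102 control probe sets were left out, and no probe set was dropped for low values. Values were fitted in R 4.3.3 with limma 3.58.1 (lmFit, eBayes), with no replicate block, two-sided, with Benjamini-Hochberg adjustment over 54613 probe sets and a threshold of 0.05. Slopes are per 10-fold dose. Before compounds were compared, each set was centred on its DMSO mean. That comparison counts no error for the DMSO means and so relies on the sets holding copies of the same arrays. In simulated data it kept its error rate with shared DMSO arrays and not with separate ones. Copies of an array correlated at 0.9986 or higher, different DMSO arrays at 0.9961 or lower, and the DMSO means of a member differed between sets by up to 0.248 on the log2 scale, which the centring removes.

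The members and gene lists were chosen with earlier results of these data known. By rule, every member probe set was described, and of the other list genes those past the threshold and the 3 highest and 3 lowest at 10 µM were named, with the 5 genes most like SLC2A3. Replicate numbers were not taken to pair samples, since every same-numbered pair correlated over 0.1 in at most 3 of 45 pairs of groups in a set.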

Additional observations from a re-analysis of the deposited data

How the results depend on the processing

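The log2 difference of SLC2A3 at 10 µM imazalil was -0.45 and ran from -0.52 to -0.35 when replicate 1, 2 or 3 was left out of all groups, or a single DMSO or imazalil array alone. It was -0.47 after joint quantile normalization, -0.48 with the interquartile range as covariate and -0.25 on probe set 202498_PM_s_at, where the cause was not tested. The count of 4 member probe sets past the threshold at 10 µM imazalil was 4 under joint normalization and with the covariate, and fell to 0 in each of the 3 fits without a replicate (range 0 to 0), which had 2 arrays per group. In the 10 tests and the 4 comparisons between compounds 0 member probe sets passed under all 126 alternatives. The lowest limma adjusted p was 0.069 without dim probe sets, for 10 µM fenbuconazole against the 3 lowest doses. With the replicate block 0 member probe sets passed in any of these 14 fits and SLC2A3 kept its value of -0.45. Of the 210 recomputed values of the 14 probe sets at 10 µM, SLC2A3 included, 6 moved by more than the SD between replicates. Of the 42 differences, 11 changed sign under some alternative, among them HK1 with each compound, HK2 with fenbuconazole and 2,4-D on both probe sets, and SLC2A8 218985_PM_at with imazalil. SLC2A3, SLC2A2 and SLC2A10 kept their sign with imazalil and fenbuconazole, although SLC2A3 202498_PM_s_at was at -0.012 without replicate 1.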
